A study of Mus musculus with 4 samples.

Results

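Ribosomal protein genes were compared between mammary tumours of mice with 2 transgenes, MMTV-cdc25a and MMTV-neu (Cdc25a;neu), and tumours from mice whose only transgene was MMTV-neu (neu). All animals were FVB/N females aged 26 weeks with early-stage tumours, and both transgenes were driven by the mouse mammary tumour virus promoter, which is active mainly in mammary epithelium. Each of 2 mouse pairs joined 1 Cdc25a;neu tumour with 1 neu tumour on 2-colour Agilent arrays, and each pair was hybridised again with the dyes swapped, giving 4 arrays. Members were 38 genes of the cytosolic ribosome. Non-control probes carrying a member symbol, or Arbp for Rplp0, numbered 35 for 27 genes, of 41174 non-control probes in all. No probe carried the symbol of the other 11 genes. For 10 of them a probe was found through the transcript accession listed beside it, as were further probes of genes already named, which added 23 probes of 19 genes. Rpl4 alone had no probe by either route. Of the 35 probes named by symbol, 34 were well above background on enough arrays to be tested, and the exception was 1 of the Rps2 probes. All 23 accession probes were kept.

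All ratios divide Cdc25a;neu by neu and are on the log2 scale, so a negative value means less signal in the Cdc25a;neu tumour. The 2 arrays of a pair carried the same RNA and were averaged, so n = 2 pairs throughout and SDs are between pairs. Fewer cells of a type and less RNA per cell cannot be told apart in whole tumours. The Cdc25a probe itself averaged 0.05 ± 0.06 (SD, n = 2 pairs), while Erbb2, the mouse name of neu, had 0.65 ± 0.28. Probes of the luminal epithelium, the labelled tissue's main cell type, were all above background (5 of 5), and their median was -0.12 in pair 1 and -0.11 in pair 2.

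Ribosomal proteins coat the RNA core of the small (40S, Rps genes) and large (60S, Rpl genes) subunits, and a growing cell makes them in near-equal numbers. Their messenger RNAs are among the most abundant in a cell. Most begin with a terminal tract of pyrimidines, through which mTOR signalling controls their translation, so that control acts largely on translation and not on the amount of messenger RNA. Some members also act outside the ribosome: Rpl5 and Rpl11, joined to 5S ribosomal RNA, bind Mdm2 and thereby stabilise p53, and Rpl22 is needed for the development of mouse T cells but not for bulk translation.

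The start regions of a few members are shown because the pyrimidine tract is what this family shares in sequence and because Rpl11, Rpl22 and Rpl19 are genes whose probes had 1 sign on all 4 arrays. Sequences are from RefSeq on the mouse build GRCm38.p6, which held a promoter for 29 of the 38 members. Each runs 5′ to 3′ on the transcribed strand, from 30 bases before to 30 bases after the annotated start. Capitals mark a run of at least 8 pyrimidines (C or T) of which 8 or more lie between 15 bases before and 25 bases after the start. Rpl11 lies at chr4:136053364-136053423 (minus strand), the downstream of 2 annotated Rpl22 starts at chr4:152325696-152325755 (plus strand) and the downstream of 2 Rpl19 starts at chr11:98026894-98026953 (plus strand). Rps6 lies at chr4:86857338-86857397 (minus strand), Rpl28 at chr7:4792935-4792994 (plus strand) and Rps18 at chr17:33955636-33955695 (minus strand). The upstream Rpl19 start, not printed, had no such run. The run printed for Rpl19 covers the 11 bases just before its annotated start, so it is not the beginning of that transcript. The Rpl11 run begins at base 14 from its annotated start, so it is not the beginning of that transcript either.
Rpl11: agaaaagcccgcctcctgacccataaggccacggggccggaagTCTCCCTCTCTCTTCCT
Rpl22: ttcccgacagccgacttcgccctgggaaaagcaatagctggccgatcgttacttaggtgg
Rpl19: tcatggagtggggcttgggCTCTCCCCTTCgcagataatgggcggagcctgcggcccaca
Rps6: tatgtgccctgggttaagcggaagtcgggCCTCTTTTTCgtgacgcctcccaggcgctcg
Rpl28: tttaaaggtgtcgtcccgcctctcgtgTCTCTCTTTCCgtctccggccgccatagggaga
Rps18: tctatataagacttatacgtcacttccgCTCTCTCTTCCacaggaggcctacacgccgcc

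Such a run was found in 13 of the 29 members with a promoter (44.8%), against 17.5% of all 27025 genes with one. The first 6 bases from the annotated start were all pyrimidines in 4 of 29 members (Rpl28, Rps18, Rps24 and Rps6), against 3.50% of all genes. The sequence CCGGAAG, on either strand within 250 bases before and 50 after the start, was found in 8 of 29 members (27.6%), Rpl11 and Rpl19 among them, against 9.93% of all genes. These are matches of letters, and annotated starts can lie some bases from the start used in a tumour.

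None of the 34 tested probes passed limma's test at an adjusted p of 0.05, where 0% of all 37173 probes passed, and the lowest adjusted p among them was 0.469. At an unadjusted p under 0.05, 5 of the 34 were lower in Cdc25a;neu, where the background over all probes was 5.69%, and 2 were higher, where it was 3.74%. The median log2 ratio was -0.06 over the 34 probes, -0.11 in pair 1 and -0.02 in pair 2, beside 0.00 over all probes. Without the pair 1 array that had Cdc25a;neu in Cy5 it was 0.05, and without saturated spots 0.02. The mean lay within 0.2 of 0 for 22 of the 34, beside 31708 of all 37173 probes and 2193 of the 3718 brightest.

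Of the 34 probes, 16 were lower in both pairs (background 28.5%), 6 were higher in both (background 31.2%) and 12 went opposite ways. Without the pair 1 array that had Cdc25a;neu in Cy5, 10 were lower and 11 higher, but this left pair 1 with only 1 dye orientation. Without saturated spots 9 were lower and 7 higher, and with array medians as the only normalization 8 and 6. On all 4 arrays alike, 5 were lower (background 12.6%) and 1 was higher (background 14.2%). Among the 23 accession probes, 7 were lower in both pairs, 4 were higher in both and 12 went opposite ways, with a median of -0.02. The 17 large subunit probes named by symbol had a median of -0.03 and the 17 small subunit probes -0.08. Ribosomal protein probes sat among the brightest on the arrays, with a median brightness percentile of 99.03, and the brightest 10% of all probes had a median log2 ratio of -0.01.

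**Figure D1:**
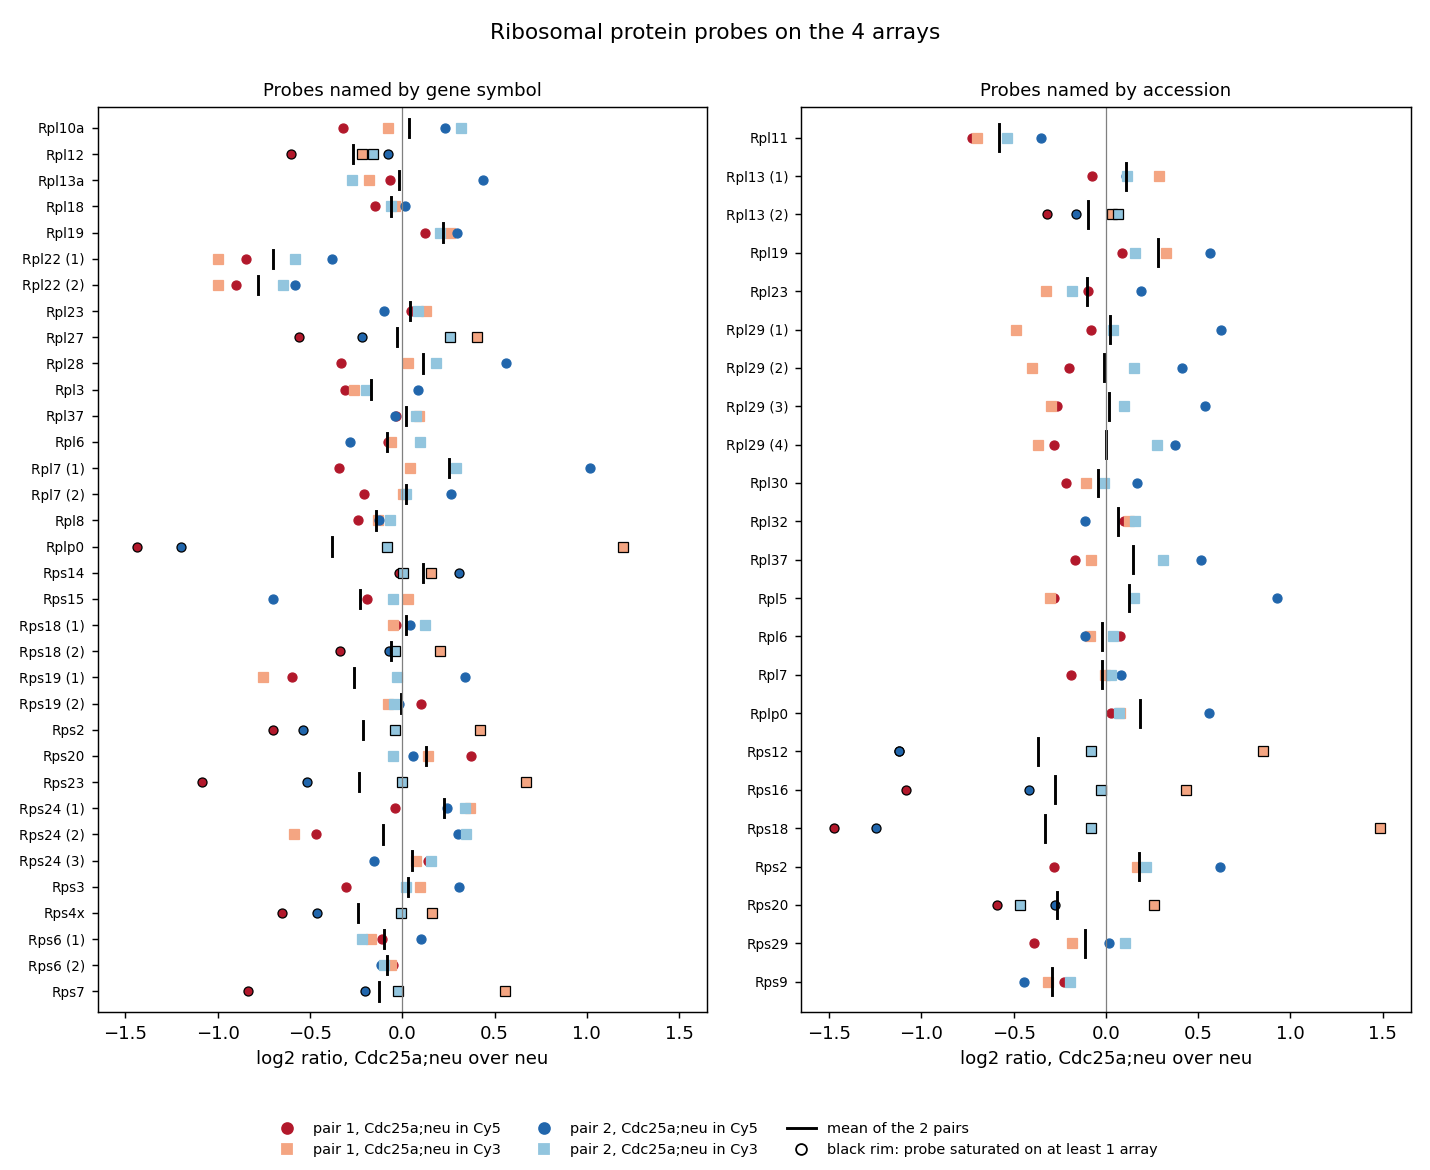
Log2 ratios (horizontal axis) of every tested ribosomal protein probe (rows) on the 4 arrays, with probes named by symbol on the left and by accession on the right. Points are arrays, black bars the mean of the 2 pairs, and a black rim marks a probe saturated on at least 1 array; Rpl22 and Rpl11 lie left of 0 on all 4 arrays, Rpl19 lies right of 0, and the widest spreads belong to rimmed probes such as Rplp0.

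Rpl22 had the lowest mean log2 ratios over the 2 pairs of the 37 measured genes, although single arrays of saturated probes were lower. This 60S protein was measured by 2 probes, and both were lower in the Cdc25a;neu tumour on all 4 arrays. The first probe had log2 ratios of -0.85 and -0.998 on the arrays of pair 1 and -0.38 and -0.58 on those of pair 2. The second had -0.90 and -0.998 in pair 1 and -0.58 and -0.65 in pair 2. Neither probe had a saturated spot. The log2 intensity of the first probe was 11.74 and 11.94 in the Cdc25a;neu tumours of pairs 1 and 2, against 12.66 and 12.42 in the neu tumours. That of the second was 9.70 and 10.15 in the Cdc25a;neu tumours, against 10.65 and 10.76 in the neu tumours. For each probe both Cdc25a;neu values lay below both neu values, and how often this held over all probes was not counted.

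The mean log2 ratios were -0.70 ± 0.31 and -0.78 ± 0.24 (SD, n = 2 pairs), or 1.63-fold and 1.72-fold lower in Cdc25a;neu. The limma adjusted p was 0.505 and 0.469, so with 2 pairs neither passed. Counting the 4 arrays as separate observations, with the pair as a random block, both Rpl22 probes passed, where 2.54% of all probes did. They were the only 2 of the 34 to do so. The arrays of a pair carried the same RNA, so this fit counted repeat hybridisations as separate observations. Both Rpl22 probes also passed with array medians as the only normalization, where 2.98% of all probes did.

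Rpl11, the partner of Rpl5 in binding Mdm2, was measured by 1 accession probe and was lower on all 4 arrays as well. Its log2 ratios were -0.73 and -0.70 in pair 1 and -0.35 and -0.54 in pair 2. Its log2 intensity was 14.04 and 14.32 in the Cdc25a;neu tumours, against 14.75 and 14.77 in the neu tumours. The mean was -0.58 ± 0.19 (SD, n = 2 pairs; limma adjusted p = 0.481), or 1.49-fold lower in Cdc25a;neu, and no spot was saturated. It passed under the same 2 alternatives as Rpl22.

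**Figure D2:**
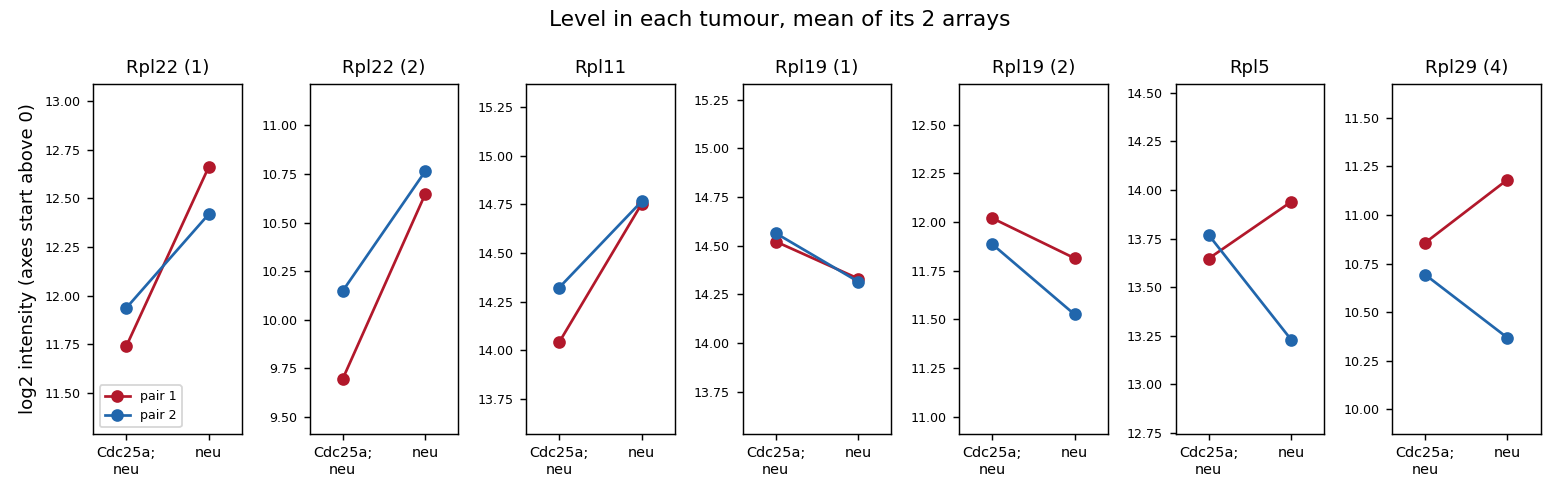
Log2 intensity (vertical axis, each panel centred on its own probe) in the Cdc25a;neu tumour and the neu tumour of pair 1 (red) and pair 2 (blue), each the mean of that tumour's 2 arrays. Both Rpl22 probes and Rpl11 were lower in both Cdc25a;neu tumours, both Rpl19 probes were higher, and Rpl5 and Rpl29 went opposite ways in the pairs.

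Rpl22 and Rpl11 share a chromosome. Both lie on mouse chromosome 4. In the gene order of GRCm38.p6, Rps20 and Rps6 come first of the members on this chromosome, followed by Rpl11 and Rpl22.

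Toward the other end of chromosome 4 the ratios were smaller. The 2 probes of Rps6, the 40S protein phosphorylated by S6 kinases, had means of -0.10 and -0.08. The 2 probes of Rps20, another 40S protein, disagreed at 0.13 and -0.27, and the lower of them had saturated spots. Over both routes, 4 of the 7 member probes on chromosome 4 were lower on all 4 arrays, against 3 of the 50 on other chromosomes (background over all probes 12.6%). The 4 were the 2 Rpl22 probes, the Rpl11 probe and the dimmer Rps6 probe, whose mean was -0.08. The share over all chromosome 4 probes was not counted.

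Some genes of related lists on the same chromosome were also lower. Rps6ka1, a kinase of the RSK family that phosphorylates Rps6, precedes Rpl11 in the gene order. It had log2 ratios of -1.18 and -0.95 in pair 1 and -1.11 and -0.73 in pair 2, averaging -0.99 ± 0.10 (SD, n = 2 pairs; limma adjusted p = 0.453). Mrps15, a mitochondrial ribosomal protein that precedes Rps6ka1, had a mean of -0.34 and was lower on all 4 arrays. Mrpl20, which follows Rpl22, had 0.08 in pair 1 and -0.35 in pair 2.

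The nearest measured genes did not all move with them. Of the 20 measured genes nearest to Rpl11, 10 on each side, 10 were lower in both pairs and 5 were higher, and the median was -0.15 in pair 1 and -0.09 in pair 2. Of the 20 nearest to Rpl22, 7 were lower and 5 higher in both pairs, the median being 0.00 and -0.03. The part of gene copy number in these ratios was not tested.

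Rpl19, a 60S protein on chromosome 11, was higher in Cdc25a;neu on all 4 arrays by both of its probes. The probe named by symbol had log2 ratios of 0.12 and 0.26 in pair 1 and 0.29 and 0.20 in pair 2. Its log2 intensity was 14.52 and 14.56 in the Cdc25a;neu tumours, against 14.33 and 14.32 in the neu tumours. Its mean was 0.22 ± 0.04 (SD, n = 2 pairs; limma adjusted p = 0.506), a difference of 1.16-fold. The accession probe had 0.09 and 0.32 in pair 1 and 0.57 and 0.16 in pair 2, and a mean of 0.28 ± 0.11 (limma adjusted p = 0.506). Of the 20 measured genes nearest to Rpl19, 7 were lower and 4 higher in both pairs. Rpl23, a 60S protein on the same chromosome, had probe means of 0.04 and -0.10.

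Rps9, Rpl12, Rpl8 and Rps6 also had a probe that was lower on every array. Rps9, measured by an accession probe and part of the 40S subunit, had log2 ratios of -0.23 and -0.31 in pair 1 and -0.44 and -0.19 in pair 2, averaging -0.29 ± 0.03 (SD, n = 2 pairs; limma adjusted p = 0.479). Rpl12, a 60S protein at the base of the ribosomal stalk, had a mean of -0.26 ± 0.21, with ratios between -0.60 and -0.08 on the arrays and 3 saturated spots. Rpl8, a 60S protein near the peptidyl transferase centre, had a mean of -0.14 ± 0.06. The second Rps6 probe had a mean of -0.08 ± 0.03, with ratios between -0.12 and -0.05. It was dim, at a brightness percentile of 10.4. The brighter Rps6 probe had 0.10 on the pair 2 array with Cdc25a;neu in Cy5. The second Rplp0 probe, described below, was higher on all 4 arrays.

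The brightest probes reached the scanner's ceiling. Among the 35 probes named by symbol, red (Cy5) spots were saturated for 8 and 6 probes on the arrays of pair 1 and for 8 and 1 on those of pair 2, and green (Cy3) spots for 4 probes on the last of these arrays alone. No probe was saturated on every array in either genotype. Over both routes 14 of the 57 tested probes were saturated on at least 1 array, and 43 never were.

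The ratios of saturated probes differed by dye orientation. Their median log2 ratio was -0.68 in pair 1 and -0.35 in pair 2 on the arrays with Cdc25a;neu in Cy5, whose red spots carried the Cdc25a;neu tumour. With Cdc25a;neu in Cy3 it was 0.41 in pair 1 and -0.03 in pair 2. The 43 probes that never saturated had medians of -0.19 and -0.08 on the 2 arrays of pair 1 and 0.11 and 0.07 on those of pair 2, and their median over both pairs was 0.00. Of the 14 saturated probes 11 were lower in both pairs, against 12 of the 43 others. Within the probes named by symbol, the 9 saturated ones had 7 lower in both pairs and a median of -0.21, and the 25 others had 9 lower, 5 higher and a median of -0.01.

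**Figure D3:**
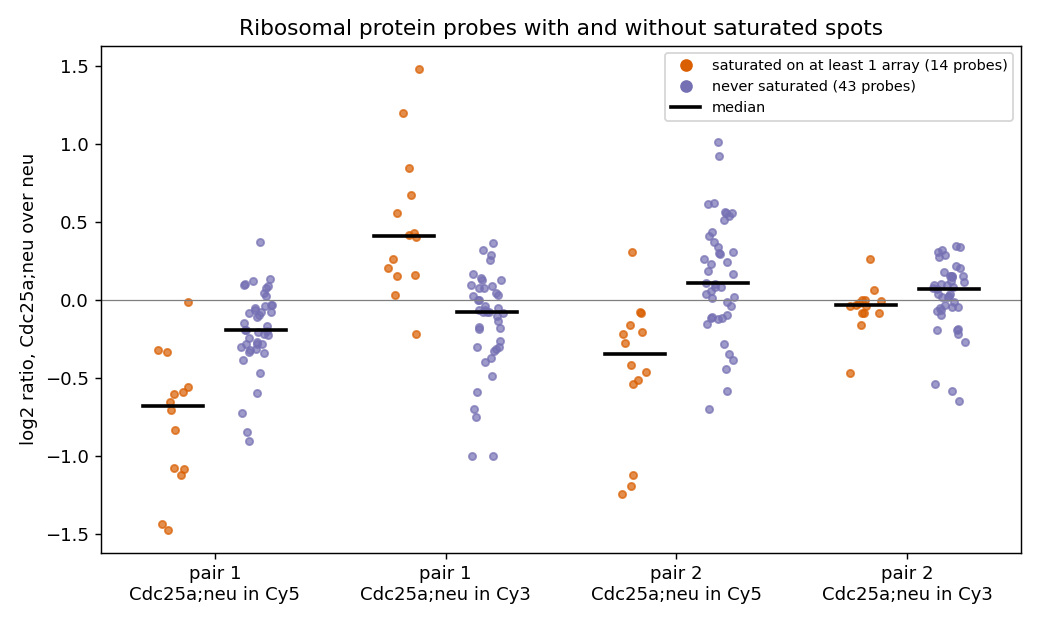
Log2 ratios (vertical axis) of the 57 tested ribosomal protein probes on each array, split into the 14 saturated on at least 1 array (orange) and the 43 never saturated (purple), with black bars for medians. On the arrays of pair 1 the saturated probes have medians of -0.68 and 0.41 in the 2 dye orientations, while the others have -0.19 and -0.08.

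Rplp0, the stalk protein often used as a reference gene under its former symbol Arbp, gives the plainest case. The Arbp probe had log2 ratios of -1.43 and 1.20 on the arrays of pair 1 and -1.20 and -0.08 on those of pair 2, with 5 saturated spots, and a mean of -0.38 ± 0.37 (SD, n = 2 pairs; limma adjusted p = 0.586). Without the pair 1 array that had Cdc25a;neu in Cy5, its mean was 0.28. A second Rplp0 probe, found by accession, never saturated and had 0.03, 0.08, 0.56 and 0.07 on the same arrays, with a mean of 0.18 ± 0.19 (limma adjusted p = 0.618). The 2 probes thus differed by 0.56 on the log2 scale and in sign. The accession probes of the 40S proteins Rps12 and Rps18 behaved like the Arbp probe. Rps12 had -1.12 and 0.85 in pair 1 and -1.12 and -0.08 in pair 2. Rps18 had -1.47 and 1.48 in pair 1 and -1.24 and -0.08 in pair 2, while its 2 probes named by symbol had means of 0.02 and -0.06.

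The 5 probes named by symbol that were lower at an unadjusted p under 0.05 split between the preceding patterns. They were the 2 Rpl22 probes, never saturated, and the probes of the 40S proteins Rps23, Rps2 and Rps4x, each with 3 or 4 saturated spots. Rps23 had a mean of -0.23 from ratios of -1.09, 0.67, -0.51 and -0.00, and Rps4x a mean of -0.24 from ratios of -0.65, 0.16, -0.46 and -0.01. Their pair means lay close together although the 2 arrays of pair 1 had opposite signs. The 2 on the higher side were the Rpl19 probe named by symbol and 1 of the Rps24 probes, which had a mean of 0.23.

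Several members went opposite ways in the 2 mouse pairs, with both arrays of each pair in accord. Rpl5, the 60S partner of Rpl11, had log2 ratios of -0.28 and -0.30 in pair 1 and 0.93 and 0.15 in pair 2, averaging 0.12 ± 0.59 (SD, n = 2 pairs; limma adjusted p = 0.897). Its log2 intensity was 13.65 and 13.77 in the Cdc25a;neu tumours of pairs 1 and 2, against 13.94 and 13.23 in the neu tumours. The Cdc25a;neu tumours lay between the 2 neu tumours. All 4 probes of the 60S protein Rpl29 showed the same split, at -0.33 to -0.28 in pair 1 and 0.28 to 0.33 in pair 2, and their means were between -0.01 and 0.02. These probes share 1 gene and are not independent.

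The same split was seen in 11 of the 57 probes, 3 named by symbol and 8 by accession, the 4 Rpl29 probes among them. In each of the 11 the ratio was lower in pair 1. The share of all probes with such a split was not counted, so 11 of 57 cannot be read as a trait of the members. One Rps24 probe had -0.53 in pair 1 and 0.32 in pair 2, while the other Rps24 probes had 0.16 and 0.11 in pair 1 and 0.29 and 0.00 in pair 2. Rpl10a had -0.20 and 0.28, and the accession probe of Rpl37 had -0.12 and 0.41. Where the arrays of a pair were less alike, the first Rpl7 probe had -0.15 in pair 1 and 0.65 in pair 2, and Rpl28 had -0.15 and 0.37. Some marker lists also had medians of opposite sign in the pairs. The 5 tested fibroblast probes of 6 had a median of -0.36 in pair 1 and 0.55 in pair 2, but Dcn and Pdgfra, with means of -0.83 and -0.29, were lower in both. The 4 macrophage probes of 4 had medians of -0.22 and 0.36. The 6 fat cell probes of 6 had -0.12 and -0.17, among them Fabp4 with -2.04 and -2.82, and the 6 tested endothelial probes of 7 had 0.09 and 0.03. The part of tissue composition in the ribosomal protein ratios was not tested.

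**Figure D4:**
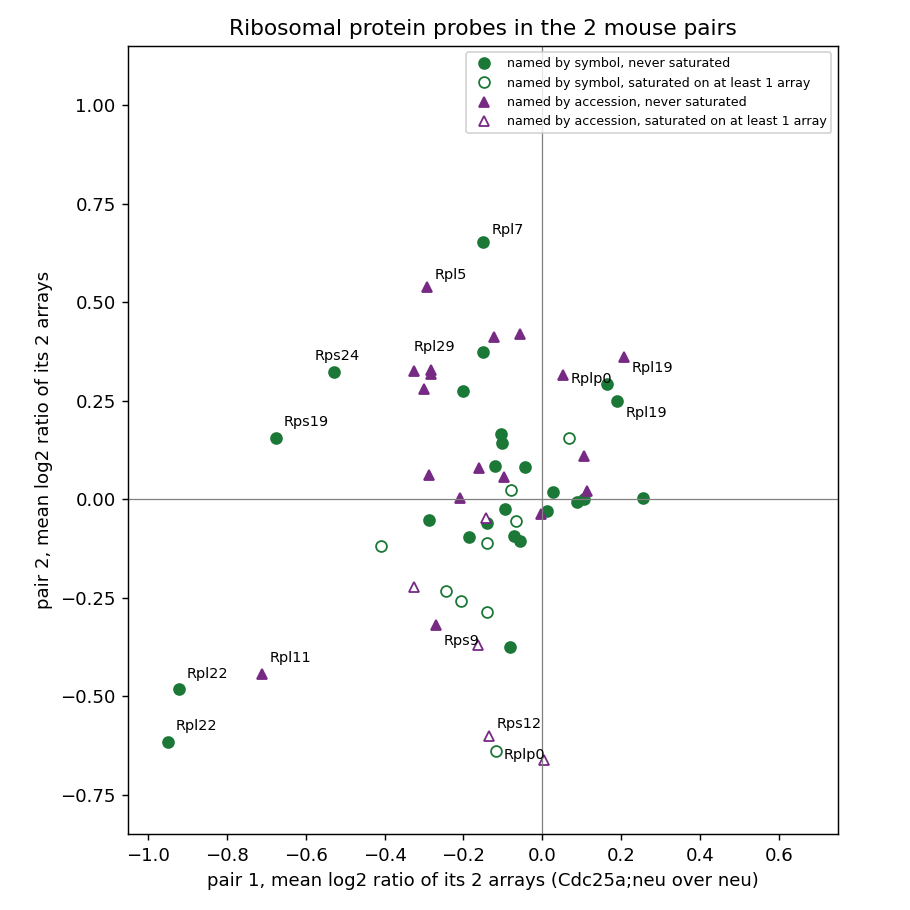
Mean log2 ratio of each tested ribosomal protein probe in pair 1 (horizontal axis) against pair 2 (vertical axis), with circles for probes named by symbol, triangles for those named by accession and open symbols for probes saturated on at least 1 array. Rpl22 and Rpl11 lie at the lower left, Rpl19 at the upper right, and Rpl5, Rpl7, Rpl29, Rps19 and Rps24 in the upper left part.

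Other members chosen because their roles are best known were near 0 or variable. Rps19, mutated in human Diamond-Blackfan anaemia, had 1 probe with log2 ratios of -0.60 and -0.75 in pair 1 and 0.34 and -0.03 in pair 2, a mean of -0.26 ± 0.59 (SD, n = 2 pairs). Its other probe had a mean of -0.01 ± 0.03. Rps14, lost in the human 5q- syndrome, had a mean of 0.11 ± 0.06 from ratios of -0.02, 0.15, 0.31 and 0.00. Rps3, a 40S protein with a reported role in DNA repair, had a mean of 0.03 ± 0.19. Rpl13a, a 60S protein that silences translation after interferon treatment of human monocytes, had a mean of -0.02 ± 0.14, and 3 of its 4 arrays were below 0.

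The rest of the ribosome's machinery was read beside the members. Of 38 tested probes of other cytosolic ribosomal proteins, none passed the test (0), and the median was -0.08. In both pairs 16 were lower (42.1%, background 28.5%) and 5 were higher (13.2%, background 31.2%). Of the 38, Rpl36a, a 60S protein, was the only probe higher on all 4 arrays, with a mean of 0.21. Mitochondrial ribosomal proteins, which form a separate ribosome, had 17 of 67 probes lower in both pairs (25.4%) and 22 higher (32.8%). Their median was 0.01. Among them Mrpl35 had ratios of 1.07, 0.84, 1.28 and 1.53, a mean of 1.18 ± 0.32 (SD, n = 2 pairs; limma adjusted p = 0.453). Mrpl36 had a mean of 0.25 and Mrpl45 a mean of -0.25, each of 1 sign on every array. Of 3 tested probes of ribosomal protein paralogs, Rpl36al had 0.28 in pair 1 and 0.15 in pair 2, Rps27l had 0.36 and 0.10, and Rpl3l had -0.03 and -0.08.

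No single probe of the translation factors, assembly factors or growth signals passed limma's test, and a common direction was not tested. Of 17 probes of initiation and elongation factors, 5 lay below 0 in both pairs (29.4%, background 28.5%). Above it lay 1 (5.88%, background 31.2%), and the median was -0.07. Eif4e, the cap-binding factor, had a mean of 0.25 ± 0.06 and was higher on all 4 arrays, while the helicase Eif4a2 had -0.18 ± 0.12 and Itgb4bp, the former symbol of the 60S anti-association factor Eif6, had -0.25 ± 0.11. Of 24 probes of ribosome assembly and ribosomal RNA synthesis, 5 were lower in both pairs (20.8%) and 7 were higher (29.2%). Their median was 0.02, with Wdr12 at -0.22 and the helicase Ddx21 at -0.17. Of 23 probes of growth signalling to ribosomes, 11 were lower in both pairs (47.8%, background 28.5%), 1 was higher (4.35%, background 31.2%), and the median was -0.08. Myc, which drives ribosomal gene transcription, had a mean of -0.37 ± 0.74, with 0.16 in pair 1 and -0.89 in pair 2. Mxi1, a repressor that competes with Myc for its partner Max, had a mean of -0.42 ± 0.09.

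**Figure D5:**
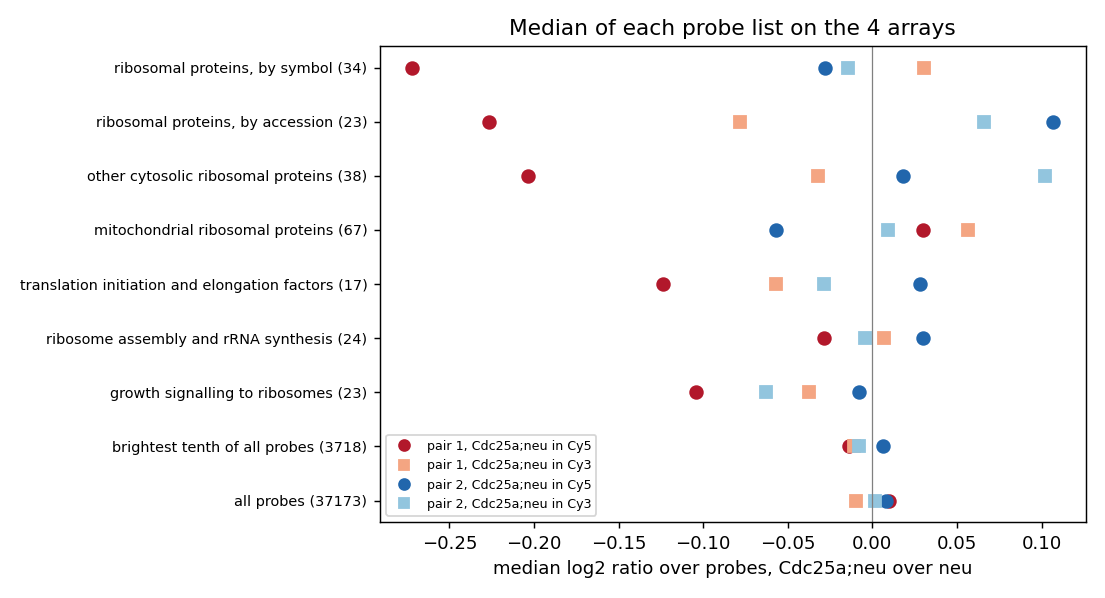
Median log2 ratio (horizontal axis) of each probe list on the 4 arrays, with the number of tested probes in parentheses and arrays coloured by pair and shaped by dye orientation. The array of pair 1 with Cdc25a;neu in Cy5 has the lowest median of ribosomal proteins named by symbol, at -0.27, while the other 3 arrays lie between -0.03 and 0.03.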

How the data were processed

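RNA was amplified from oligo-dT primers, per the labels' protocols. The deposited scanner output gives, per the file headers, each spot's intensity and background median in green and red, a processed signal, and the log10 ratio of red to green. Agilent Feature Extraction has version 7.2 in the submitters' processing notes and 7.5.1 in the headers. The authors' deposited value table holds natural log ratios of red over green, a scale settled by regressing it on the scanner's ratio (slopes 2.27 to 2.29, r 0.982 to 0.992). Its column medians were 0.0208, 0.0006, 0.0208 and 0.0079, how it was centred is unknown, and it was used as an alternative.

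Spot intensities were corrected by normexp (offset 50) and normalized by loess within each array, control spots having no weight. Spots with outlier flags were dropped and spots of a probe averaged. Tested probes were well above background on 2 or more arrays in either channel. Dye-swapped arrays were turned and averaged within each pair, and the pair means were tested against 0, two-sided, with limma 3.58.1 (R 4.3.3), adjusted by Benjamini-Hochberg over 37173 probes. The procedure was run on simulated data whose spread came from the same fit, so that run cannot show whether the fit's assumptions hold here. Nothing tells whether tumours of a genotype were litter mates, and the number of pairs limits precision. Arrays of a pair carry the same extracts, which the labels give. They correlated at 0.64 and 0.75 over all probes, and arrays of different pairs at 0.20 to 0.36. The files name no genome build, so names, chromosomes and gene order came from GRCm38.p6.

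Members and lists were chosen with earlier results of these data known. Named are members whose roles are best known and up to 6 probes per direction of 1 sign on all 4 arrays. Also named are 4 probes whose pairs were most opposed and genes whose probes differed by at least 0.5. Each other list gives 2 probes per direction. Other genes were named after their values were seen. Some items these rules name are left out of the text.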

Additional observations from a re-analysis of the deposited data

Results flagged for a closer look

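For 3 of the 57 ribosomal protein probes, both arrays with Cdc25a;neu in Cy5 went one way and both with it in Cy3 the other, a difference between dye orientations that was not tested. The Rpl27 probe was 0.72 lower with Cdc25a;neu in Cy5 (a difference of -0.72 on the log2 scale), and 2 of its spots were saturated. The accession probe of Rpl13 differed by -0.29, also with 2 saturated spots, and the symbol-named Rpl37 probe by -0.12, with no saturated spot.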

How the results depend on the processing

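None of the 15 to 17 other settings that gave a value changed the direction of 15 of the 21 probes named by the rule, including Rpl22, Rpl11, Rpl19 and Rps9. Some of these settings altered only the probe filter or the test model and left the mean ratio unchanged. Leaving out 1 array cannot reverse a probe of 1 sign on all 4 arrays, such as those of Rpl22, Rpl11, Rpl19 and Rps9. Part of this stability was therefore fixed in advance. With array medians as the only normalization, 2 ribosomal protein probes named by symbol and the accession probe of Rpl11 passed the test, beside 1109 of all probes, 8 were lower in both pairs, 4 probes of the other lists passed, and Rpl13a (0.040) and the second Rps19 probe (0.069) turned upward. With the 4 arrays as observations and the pair as a random block (replicate block), 2 probes named by symbol, the Rpl11 accession probe and 4 of the other lists passed, beside 944 of all probes. The estimated correlation was then -0.01, so the 2 hybridisations of the same RNA counted as separate. Without saturated spots, 28 probes could be tested, 9 were lower in both pairs and the median was 0.020. In the authors' value table Rpl28 was -0.023. Leaving out 1 array at a time gave 10 to 17 probes lower and 3 to 11 higher in both pairs, and a median of -0.081 to 0.046. The upper median, with 10 lower and 11 higher, came without the pair 1 array with Cdc25a;neu in Cy5. The same step moved Rplp0 (Arbp) between -1.04 and 0.28, Rpl13a between -0.20 and 0.16, Rpl5 between -0.070 and 0.32, Rps3 between -0.069 and 0.13 and the second Rps19 probe between -0.053 and 0.034. In settings chosen after seeing the data, 9 probes were lower when only never saturated ones were used, and 10 of 57 were higher with accession probes added. The cause of these changes was not tested. Saturation limits what the brightest probes can show, and 2 pairs limit every test.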
